A study of Homo sapiens with 4 samples.

Results

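Transcripts of the nuclear pore and of the receptors that move cargo through it were followed with RNA-seq in SK-LMS-1, an established human line from a leiomyosarcoma, a tumour of smooth muscle. Genes were taken by symbol from the deposited count table: nucleoporins (names starting with NUP and a digit, with AAAS, NDC1, POM121, SEH1L and TPR), importins (KPNA, KPNB1, IPO and TNPO genes), exportins (XPO genes) and the 4 genes of the Ran cycle. RANBP2 was left out. The pattern found 56 genes of 19381 listed: 28 nucleoporins, 18 importins, 6 exportins and RAN, RANBP1, RANGAP1 and RCC1.

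There were 2 libraries of untreated SK-LMS-1 cells and 2 of the same line exposed to 50 µM 2-D08, a flavone that blocks SUMO attachment, for 48 h. No vehicle is named for the untreated cells, and the labels do not say whether replicate libraries stem from different cultures. The p-values therefore reflect how far the replicate libraries differ, and this spread may be purely technical. All 4 libraries are of 1 line, and RNA was depleted of ribosomal RNA. The labels call the cells uterine leiomyosarcoma. Of 7 smooth muscle markers, 5 were high enough to test; DES had 0 counts in all 4 libraries, MYOCD had 0 in both untreated ones, and CALD1 alone held most of the summed level of 680 to 716 CPM in untreated and 465 to 545 CPM in treated libraries. Of the 5 tested, 3 (CALD1, TAGLN and CNN1) were lower in treated cells at an edgeR adjusted p under 0.05, against 16.9% of all tested genes. Among epithelial markers KRT18 stood at 217 and 194 CPM untreated and 210 and 182 CPM treated. KRT8 and KRT19 held 18.1 to 22.1 CPM untreated and were called lower, while EPCAM and CDH1 stayed below 1 CPM. The endothelial markers PECAM1, CDH5, VWF and KDR reached at most 1.45 CPM. The immune markers PTPRC, CD3E and CD14 stayed below 1 CPM in all 4 libraries. CD68, a lysosomal protein of macrophages that other cells also make, rose from 60.4 and 65.3 to 93.4 and 92.6 CPM (0.57, edgeR adjusted p = 0.000503). CPM is the count scaled to a common library size (counts per 1e6) after TMM scaling, which evens out composition differences between libraries.

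The nuclear pore is a ring of stacked protein assemblies that spans the nuclear envelope. Its scaffold consists of outer and inner rings, the channel is filled with phenylalanine-glycine repeat proteins, and filaments and a basket extend to the cytoplasm and the nucleus. Importins bind cargo in the cytoplasm and release it in the nucleus on binding RAN-GTP, while exportins bind cargo together with RAN-GTP. RCC1 on chromatin loads RAN with GTP and RANGAP1 at the pore triggers its hydrolysis, which gives transport its direction. RANGAP1 is known as a major SUMO-modified protein of the pore. Only transcripts were measured here, not proteins or their modification.

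The deposited tables hold no sequences. Promoter sequences were therefore taken from RefSeq (GRCh38.p14), as the 250 bases before the annotated start, for 49 of the 56 genes. The 4 shown belong to the nucleoporin and importin genes with the largest rises among pore components and importins, to an inner ring gene that holds 3 of the motifs searched, and to the gene with the largest fall. They are printed 5′ to 3′ on the plus strand, which is the coding strand of all 4. Capitals mark matches to CCAAT, to the CHR element (TTTGAA or TTCGAA) and to the ETS motif CCGGAAGT, on either strand. No 2 matches in these 4 windows overlapped.
KPNA2, chr17:68035485-68035734: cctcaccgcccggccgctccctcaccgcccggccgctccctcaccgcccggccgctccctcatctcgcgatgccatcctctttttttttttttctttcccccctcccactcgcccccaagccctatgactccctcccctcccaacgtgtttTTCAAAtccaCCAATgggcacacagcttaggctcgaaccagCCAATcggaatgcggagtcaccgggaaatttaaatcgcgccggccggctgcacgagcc
NUP58, chr13:25301375-25301624: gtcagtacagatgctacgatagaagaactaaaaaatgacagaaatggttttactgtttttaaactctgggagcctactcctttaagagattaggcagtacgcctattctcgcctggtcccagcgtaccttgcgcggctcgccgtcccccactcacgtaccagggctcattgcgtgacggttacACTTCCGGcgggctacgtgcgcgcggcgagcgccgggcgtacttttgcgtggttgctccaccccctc
NUP35, chr2:183124193-183124442: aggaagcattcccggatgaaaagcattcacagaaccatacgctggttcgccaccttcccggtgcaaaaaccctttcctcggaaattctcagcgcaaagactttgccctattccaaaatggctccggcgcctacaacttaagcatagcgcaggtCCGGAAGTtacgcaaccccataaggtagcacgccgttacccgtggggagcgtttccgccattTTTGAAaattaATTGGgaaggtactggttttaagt
XPOT, chr12:64404142-64404391: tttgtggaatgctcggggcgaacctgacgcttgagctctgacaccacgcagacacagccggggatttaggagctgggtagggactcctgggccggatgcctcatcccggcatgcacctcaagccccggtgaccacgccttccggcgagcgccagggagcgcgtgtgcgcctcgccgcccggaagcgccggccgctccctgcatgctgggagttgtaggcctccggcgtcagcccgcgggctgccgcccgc

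In the KPNA2 window the CHR match lay at -99 to -94 and the CCAAT matches at -89 to -85 and at -58 to -54, counted back from the RefSeq start. The gene positions given below come from GENCODE, whose starts differ. Those of KPNA2, NUP58 and XPOT lie inside the printed windows, and that of NUP35 lies before its window. Which bases count as promoter, and the distances, thus depend on the start used. Across the 49 promoters, CCAAT was found in 21 (42.9%), against 35.6% of 10593 promoters of tested genes. The ETS motif was found in 8 (16.3%, against 7.21%) and the CHR element in 9 (18.4%, against 9.96%). The E-box CACGTG was found in 7 (14.3%, against 8.76%), and the cyclic AMP response element TGACGTCA in 3 (6.12%, against 2.9%). The YY1 motif AAGATGGC was found in 2 (4.08%, against 1.77%). An E2F motif (TTTCCCGC, TTTGGCGC, TTTCGCGC or TTTGCCGC) was found only in IPO11, and the ATF4 motif TGATGNAA only in NUP153. Their shares among tested genes were 4.58% and 1.43%. The XPOT window held no match to any of these 8 motifs. All counts are of letters on both strands and describe the windows alone.

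**Figure D1:**
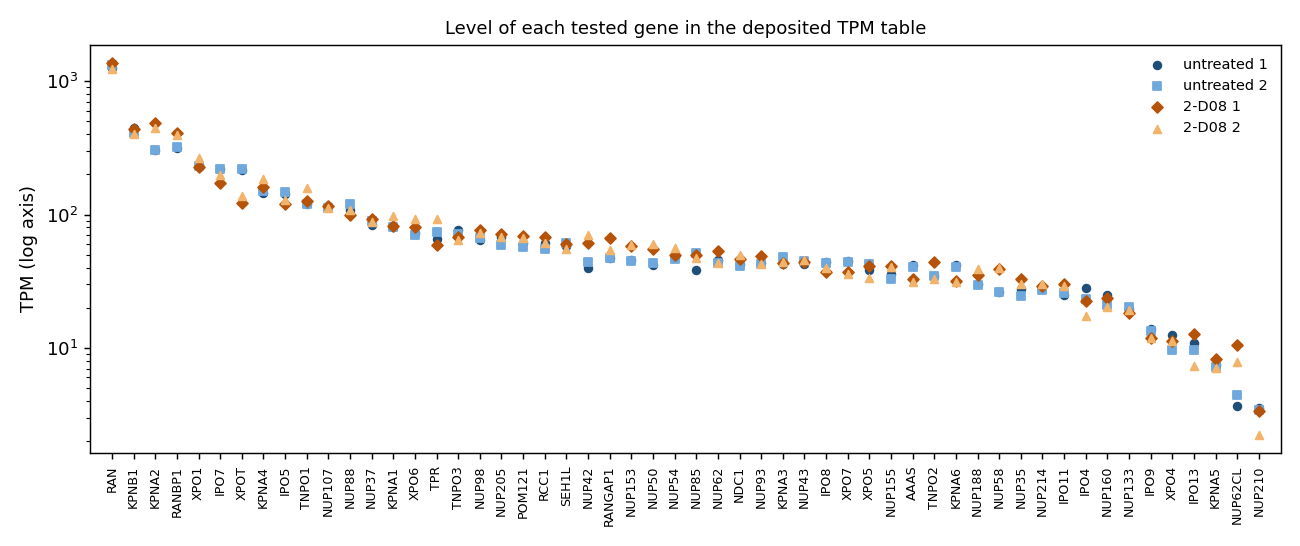
Level of each of the 54 tested genes in the deposited TPM table, in order of its mean over the 4 libraries, on a log axis; each mark is 1 library. RAN stands above all others, at 1232 to 1364 TPM, and NUP210 is lowest, at 2.24 to 3.52 TPM.

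On the TPM scale, which corrects for transcript length, RAN was highest with a mean of 1293, followed by KPNB1 (424), KPNA2 (384), RANBP1 (361), XPO1 (240), IPO7 (203) and XPOT (173). Importin beta, encoded by KPNB1, is the receptor that carries importin alpha and its cargo through the pore. The most abundant nucleoporin transcript was NUP107, an outer ring scaffold gene, at 116, 112, 117 and 112 TPM in untreated 1 and 2 and treated 1 and 2. The least abundant pore component was NUP210, a membrane nucleoporin. KPNA7, an importin alpha known from oocytes, and NUP210L, a testis paralog, had 0 to 6 and 0 to 8 counts per library and were too low to test. Thus 54 of 56 genes were tested.

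Of the 54, 16 were higher and 3 lower in treated cells, with a median log2 fold change of 0.14. A gene was called changed at an adjusted p under 0.05 (edgeR quasi-likelihood test, Benjamini-Hochberg over all genes). Of all 12906 genes tested, 33.9% were called, 17.1% higher and 16.9% lower, with a median of 0.00. The share of transport genes called in either direction (35.2%) was thus close to the background, while 29.6% were higher and 5.56% lower. Both treated libraries lay above both untreated ones for 31 of the 54 and below them for 11, whereas over all tested genes these shares were 33.8% and 33.7%. At an unadjusted p under 0.05, 2883 of the 12906 tested genes were higher and 2813 lower. Summed over the 54 genes, transcripts took 10639 and 10878 CPM in the untreated libraries (lower and higher value) and 11221 and 11850 CPM in the treated ones.

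In 2 libraries, untreated 1 and treated 2, most counts were even numbers: 49 and 45 of the 54 genes, against 27 and 29 in the other libraries. The origin of the even counts was not tested. With the counts of these libraries halved, the same 19 of 19 calls were kept and none was added. Library totals ran from 14796702 to 31300635 counts. Leaving out untreated 1 kept 5 of the 19 calls (KPNA2, NUP58, NUP62CL, RANGAP1 and XPOT), and leaving out untreated 2 kept 7 (KPNA2, NUP58, XPOT, NUP62CL, NUP50, NUP42 and IPO4). Each lost call is named with its value where the gene is described. On the log2(TPM + 1) scale 6 calls were kept (KPNA2, XPOT, NUP58, NUP62CL, NUP42 and NUP50), and without a filter on low values 2 (KPNA2 and XPOT).

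Among nucleoporins, 9 of 27 tested genes rose and 1 fell, with a median log2 fold change of 0.17. The share called was 37.0% (33.3% higher, 3.70% lower), against 33.9% of all tested genes (17.1% and 16.9%). NUP58, which forms the lining of the central channel together with NUP54 and NUP62, had the largest change among pore components (chromosome 13, 25301524 to 25349800, GRCh38). It stood at 88.4 and 90.8 CPM in untreated cells and at 138 and 149.8 CPM in treated cells. Both treated libraries were well above both untreated ones. The log2 fold change was 0.69 ± 0.09 (SE), 1.61-fold, with an edgeR adjusted p of 8.62e-05, and 0.0022 and 0.000939 without untreated 1 or 2. Its channel partners moved less: NUP54 had 65.1 and 66.2 against 71.0 and 79.2 CPM, and NUP62 had 93.4 and 84.6 against 109 and 94.5 CPM. Neither passed the test (adjusted p of 0.136 and 0.165). The reads of NUP62 are uncertain, as it shares 626 exonic bases with ATF5 on the opposite strand. On the same strand it shares 336 with IL4I1 and 384 with AC011452.1. The TPM ratio of NUP58 to NUP54 was 0.541 and 0.571 in untreated cells and 0.783 and 0.707 in treated cells. NUP98, a channel protein whose precursor also yields an outer ring subunit, did not pass either (log2 fold change 0.14).

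**Figure D2:**
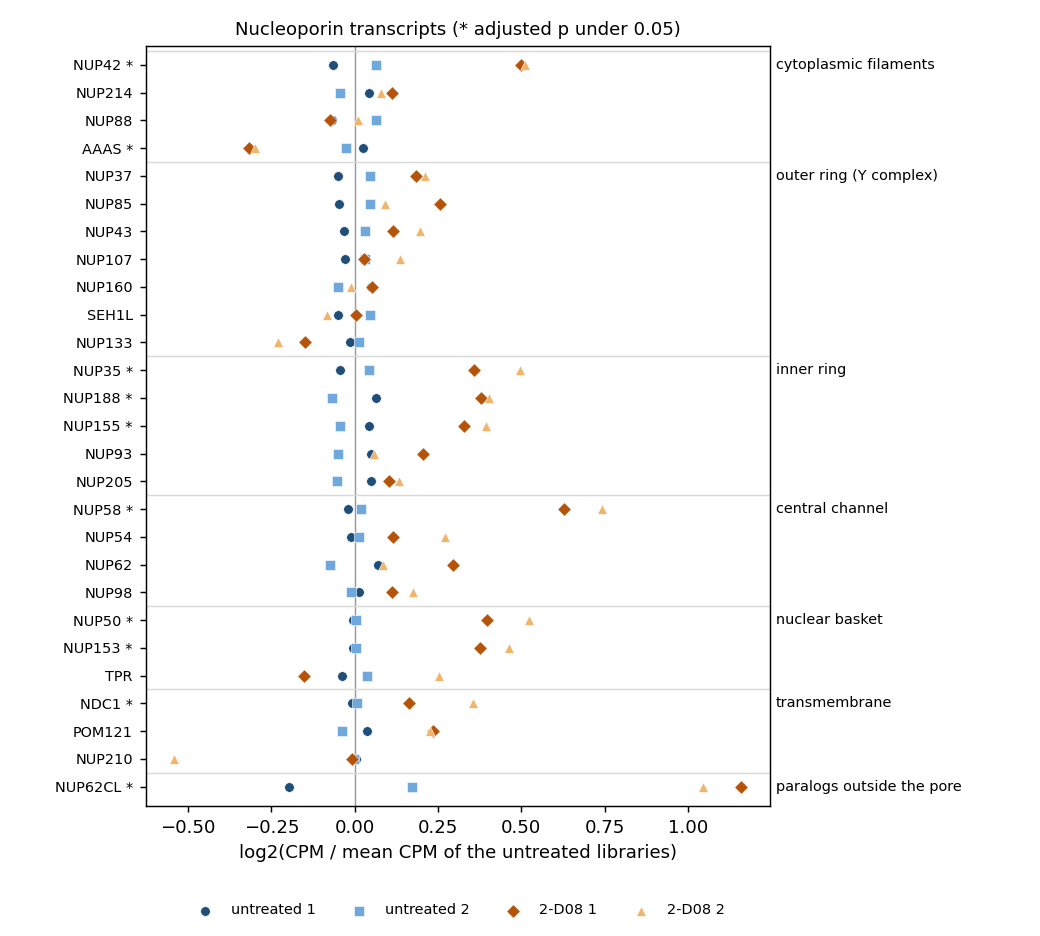
Nucleoporin transcripts by pore assembly: log2 of each library's CPM over the mean of the untreated libraries, 1 mark per library, with * for an edgeR adjusted p under 0.05. Marks of the outer ring genes stay close to 0. Both treated marks of NUP58, NUP42, NUP50 and NUP153 lie to the right of the untreated ones. This also holds for 3 outer ring genes, and for 19 of the 27 genes in all, against 33.8% of all tested genes.

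The nuclear basket showed rises in 2 of 3 genes, against 17.1% of all tested genes. NUP50, which helps to release cargo and recycle importin alpha, went from 127 and 128 CPM to 168 and 183 CPM (log2 fold change 0.46, edgeR adjusted p = 0.0016). NUP153, which anchors the basket and binds importins, went from 201 and 202 CPM to 262 and 278 CPM (0.42, edgeR adjusted p = 0.00253). Of the 50-base windows of NUP50, 15.3% also occur in other genes. In both genes the untreated libraries were nearly equal and the treated ones clearly higher. TPR, the coiled-coil protein that builds the basket's filaments, split the treated pair instead: 323 and 340.3 CPM untreated, 299 and 396 CPM treated (log2 fold change 0.07, adjusted p = 0.683). Treated 1 lay below and treated 2 above both untreated libraries. TPR shares 670 exonic bases with PRG4 on the opposite strand, so its reads are uncertain. The value for TPR was -0.16 without treated 2 and 0.25 without treated 1, where it passed (edgeR adjusted p = 0.00415). Without untreated 1 the adjusted p rose to 0.0565 for NUP50 and 0.0929 for NUP153, and NUP153 also missed the threshold without untreated 2 (0.0731).

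Of the 5 inner ring genes, 3 rose and 0 fell, against 17.1% and 16.9% of all tested genes. At an unadjusted p under 0.05 also 0 fell, and DESeq2 called 0 lower. NUP35, a membrane-binding scaffold gene, went from 20.3 and 21.6 to 26.8 and 29.5 CPM (0.44, edgeR adjusted p = 0.0167). NUP188 went from 113 and 103 to 141 and 143 CPM (0.39, edgeR adjusted p = 0.00512), and NUP155 from 131 and 123 to 160 and 167 CPM (0.36, edgeR adjusted p = 0.0074). NUP188 shares 284 exonic bases with the gene model AL672142.1 on the same strand and 61 with SH3GLB2 on the opposite strand, so its reads are uncertain. In all 5 inner ring genes both treated libraries lay above both untreated ones, as in 33.8% of all tested genes. The linker NUP93, at 54.1 and 50.6 against 60.3 and 54.5 CPM, and NUP205, at 275 and 256 against 285 and 291 CPM, did not pass (adjusted p of 0.367 and 0.328). Without untreated 1 the adjusted p was 0.235 for NUP35, 0.052 for NUP188 and 0.0978 for NUP155. Without untreated 2 it was 0.0929, 0.181 and 0.196. NUP35 also lost its call with counts thinned to the smallest library (0.0522).

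Of the outer ring, or Y complex, 0 of the 7 genes matched by the symbol pattern were called by edgeR. Of all tested genes, 33.9% were called in either direction. At an unadjusted p under 0.05 the count was also 0, and DESeq2 called 0. Log2 fold changes ran from -0.19 for NUP133 to 0.20 for NUP37, with a median of 0.09. NUP133 stood at 50.4 and 51.4 CPM untreated and 45.9 and 43.4 CPM treated, and NUP37 at 56.6 and 60.5 against 66.5 and 67.8 CPM. The groups overlapped for NUP107, NUP160 and SEH1L. Both treated libraries lay above both untreated ones for NUP37, NUP43 and NUP85, and below them for NUP133. The ring also holds AHCTF1 and SEC13, which lie outside the pattern. AHCTF1, which encodes ELYS, the subunit that tethers the ring to chromatin, rose from 124 and 130 to 156 and 191 CPM (0.45, edgeR adjusted p = 0.00451). Its call was lost without untreated 1 (0.0887) and on the log2(TPM + 1) scale (0.182). SEC13 stood at 84.1 and 84.5 against 85.8 and 71.1 CPM (-0.11, adjusted p = 0.45), and passed without treated 1 (-0.25, edgeR adjusted p = 0.0233). The difference between outer ring and inner ring or basket genes was itself not tested, and a gene that missed the threshold is not shown to be the same in both groups.

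At the cytoplasmic face the genes went in opposite directions. NUP42, whose product works in mRNA export, rose from 36.2 and 39.6 to 53.6 and 54.0 CPM (0.51 ± 0.11, edgeR adjusted p = 0.0024). AAAS, which encodes aladin, the protein altered in triple A syndrome, fell from 48.5 and 46.8 to 38.2 and 38.7 CPM (-0.31, edgeR adjusted p = 0.0364). In each gene the pairs were tight and did not overlap. NUP214 (0.09) and NUP88 (-0.03), which together hold the filaments, did not pass. NUP88 shares 468 exonic bases with RABEP1 and 520 with RPAIN, both on the opposite strand, so its reads are uncertain. Without untreated 1 the adjusted p was 0.0921 for NUP42 and 0.343 for AAAS, and without untreated 2 it was 0.19 for AAAS. AAAS also lost its call with DESeq2 and with counts thinned to the smallest library.

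Membrane nucleoporins anchor the pore in the envelope. NDC1 rose from 133 and 134 to 149 and 171 CPM (0.26, edgeR adjusted p = 0.0459). This call was at the threshold and was lost with DESeq2, with RLE factors, on the deposited transformed values and without treated 2 (0.136), untreated 1 (0.352) or untreated 2 (0.291). POM121 was at 252 and 239 CPM untreated and 289.5 and 288 CPM treated, just outside the threshold (0.23, adjusted p = 0.0571). Its reads are uncertain, because 35.0% of the 50-base windows of its transcript also occur in other genes, mostly POM121C and POM121B. NUP210 stood at 18.5, 18.5 and 18.4 CPM in 3 libraries and at 12.7 CPM in treated 2 (adjusted p = 0.244). NUP62CL, a low-level paralog of NUP62 outside the known pore, had the largest fold change of all 54 genes. It had 100 and 72 counts in untreated cells and 130 and 246 in treated cells, or 3.37 and 4.36 against 8.64 and 7.97 CPM. That was 2.17-fold (log2 1.12 ± 0.21, edgeR adjusted p = 0.00125).

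Importins were called in 5 of 17 tested cases, 4 higher and 1 lower, with a median log2 fold change of 0.12. The share called was 29.4% (23.5% higher, 5.88% lower), against 33.9% of all tested genes (17.1% and 16.9%). The change was largest in KPNA2, an importin alpha that adapts classical nuclear localization signals to importin beta (chromosome 17, 68035519 to 68046842). It had 409 and 423 CPM in untreated cells and 678 and 654 CPM in treated cells, with a wide gap between the pairs. The log2 fold change was 0.68 ± 0.09 (SE), 1.6-fold (edgeR adjusted p = 6.42e-05). KPNA2 was called in all 18 alternatives tried, with values from 0.61 to 0.70. Of its 50-base windows, 17.3% also occur in other genes, chiefly models of the pseudogene KPNA2P3.

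The other importin alpha genes moved less or the other way. KPNA4 rose from 368 and 402 to 439 and 499.6 CPM (0.29, edgeR adjusted p = 0.033), and its call was lost without untreated 1 (0.435) or 2 (0.152). KPNA6 had 202 and 189 CPM untreated and 176 and 165 CPM treated (-0.20, adjusted p = 0.108). KPNA1 (0.15), KPNA3 (0.04) and KPNA5 (0.24) did not pass either. The summed importin alpha TPM was 622 and 629 in untreated and 811 and 807 in treated libraries. Within it, the share of KPNA2 was 48.9% and 48.1% in untreated cells and 59.9% and 55.0% in treated cells. The share of KPNA6 was 6.72% and 6.40% against 3.92% and 3.88%. The shares of KPNA1, KPNA3, KPNA4 and KPNA5 were also lower in both treated libraries. A lower share is not by itself a lower level, as a larger share of KPNA2 leaves less for the rest. KPNA6 was lower in TPM as well, at 41.8 and 40.3 in untreated and 31.8 and 31.3 in treated libraries. The TPM ratio of KPNA2 to KPNB1 was 0.68 and 0.735 against 1.12 and 1.10. Its size depends on the scale. KPNB1 had 448 and 411 TPM untreated and 435 and 402 TPM treated, but was higher in both treated libraries in CPM (947 and 981 against 1050 and 1169). With 2 libraries a group an exact two-sided permutation test of such a ratio cannot go below p = 0.333, so these ratios are given without a test.

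**Figure D3:**
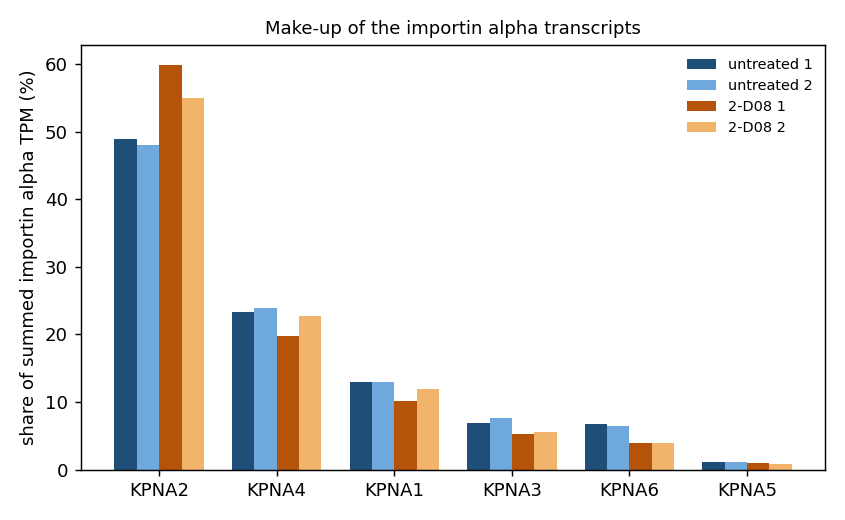
Share of each gene in the summed TPM of the importin alpha genes, in percent, 1 bar per library; KPNA7, at or near 0, is not drawn. KPNA2 takes 48.1% to 48.9% in untreated and 55.0% to 59.9% in treated libraries. The bars of all other genes drawn are lower in both treated libraries. A lower share is not by itself a lower level, but KPNA6 was also lower in TPM.

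In the importin beta family, 0 of the 8 genes matched by the pattern were called higher and 1 lower by edgeR. Of all tested genes, 17.1% were higher and 16.9% lower. At an unadjusted p under 0.05, 2 of the 8 were higher and 2 lower, against 2883 and 2813 of all 12906 tested genes. DESeq2 called 0 of the 8 higher and 1 lower. The 1 fall was that of IPO4, a carrier of histones and ribosomal proteins, from 57.8 and 52.5 to 45.4 and 36.4 CPM (-0.44 ± 0.12, edgeR adjusted p = 0.0125). The treated pair lay below the untreated pair but was spread wide, and the call was lost without untreated 1 (0.177). IPO4 is also uncertain in its counting, as 95.1% of its 50-base windows occur in an overlapping gene model on the same strand, and 39 exonic bases are shared with REC8 on the opposite strand. KPNB1 itself had 947 and 981 CPM untreated and 1050 and 1169 CPM treated (0.20, adjusted p = 0.0954), with the fitted sign turned on the TPM scales. IPO5, IPO7 and IPO8, carriers of ribosomal proteins and other cargo, stood below the untreated pair in both treated libraries. IPO7 had 939 and 989 CPM against 768 and 911 CPM (-0.20, adjusted p = 0.133). IPO8 had 147 and 149 against 117 and 135 CPM (-0.23, 0.081), and IPO5 had 402 and 419 against 358 and 381 CPM (-0.15, 0.195). None of these 3 passed the test. IPO9 (0.02), IPO11 (0.23) and IPO13 (0.12) did not pass either. RANBP6, a close paralog of IPO5 outside the pattern, rose from 58.9 and 56.4 to 68.4 and 76.8 CPM (0.33, edgeR adjusted p = 0.0205). That call was lost without treated 2 (0.0637), untreated 1 (0.151) or untreated 2 (0.228) and on the log2(TPM + 1) scale (0.194).

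Of the 3 transportins, 2 rose, against 17.1% of all tested genes. TNPO1, the receptor of proline-tyrosine signals such as that of hnRNP A1, went from 455 and 457 to 568 and 634 CPM (0.40 ± 0.09, edgeR adjusted p = 0.00407). Its close paralog TNPO2 went from 75.5 and 73.3 to 104 and 87.7 CPM (0.36, edgeR adjusted p = 0.015). TNPO3, which imports SR splicing factors, was at 237 and 228 CPM untreated and 218 and 216 CPM treated (-0.10, adjusted p = 0.424). Treated libraries were above the untreated ones for the first pair of genes and below them for TNPO3. Without untreated 1 the adjusted p was 0.113 for TNPO1 and 0.117 for TNPO2, and without untreated 2 it was 0.0921 and 0.156.

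**Figure D4:**
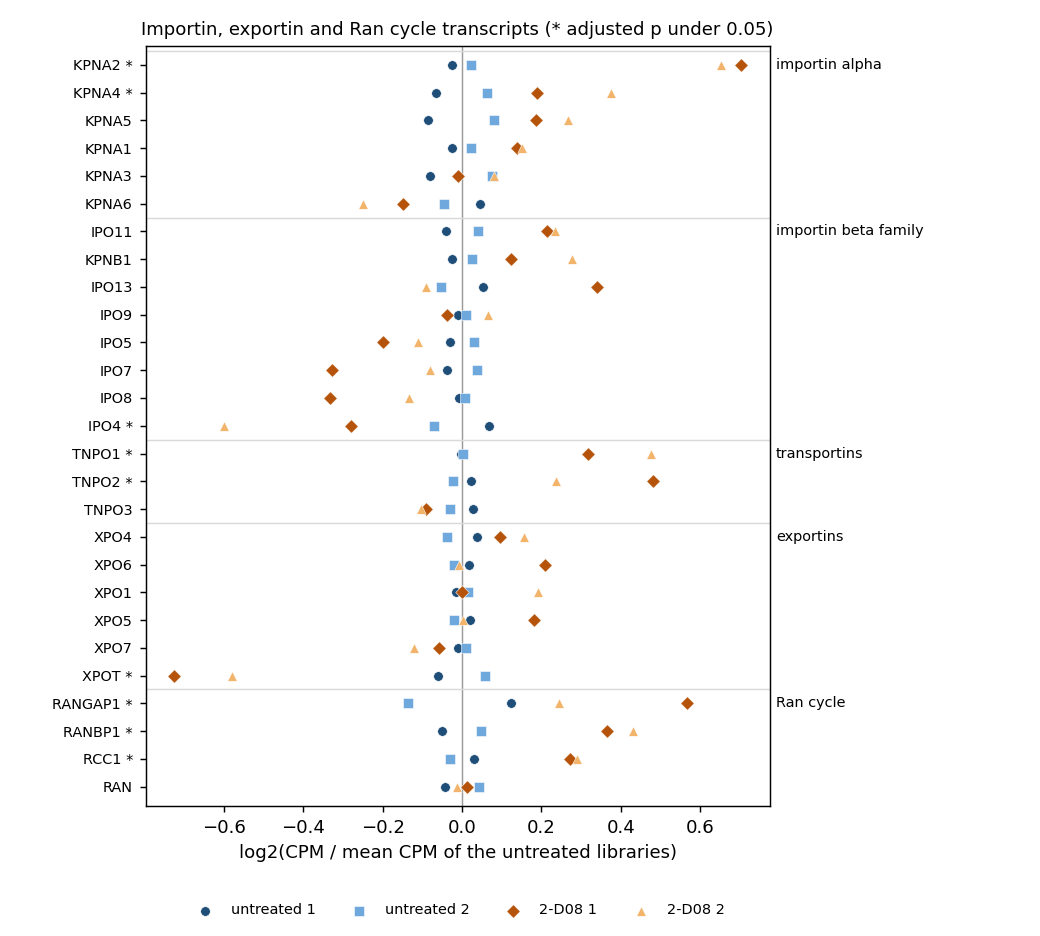
Importin, exportin and Ran cycle transcripts: log2 of each library's CPM over the mean of the untreated libraries, 1 mark per library, with * for an edgeR adjusted p under 0.05. XPOT has both treated marks far to the left and KPNA2 far to the right, while the marks of XPO1, XPO5, XPO6 and RAN overlap between groups.

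Of the 6 exportins with XPO symbols, 1 fell and 0 rose, against 16.9% and 17.1% of all tested genes. At an unadjusted p under 0.05 also 0 rose, and DESeq2 called 0 higher and 1 lower. The fall was that of XPOT, the export receptor of transfer RNA (chromosome 12, 64404350 to 64451127). It had 751 and 815 CPM in untreated cells and 473 and 524 CPM in treated cells. The pairs were far apart, and the log2 fold change of -0.65 ± 0.09 (SE), 1.57-fold lower, had an edgeR adjusted p of 0.000148. XPOT was called in all 18 alternatives, with values from -0.74 to -0.58. Of its 50-base windows, 10.3% occur in other genes, among them the pseudogene XPOTP1. XPO1, the main exporter of proteins with leucine-rich signals, had 648 and 662 CPM against 655 and 748 CPM (0.10, adjusted p = 0.43). The TPM ratio of XPOT to XPO1 was thus 0.922 and 0.939 in untreated cells and 0.537 and 0.517 in treated cells. XPO5, which exports microRNA precursors, had 119 and 115 against 132 and 117 CPM. It shares 348 exonic bases with POLR1C on the opposite strand, so its reads are uncertain. XPO4 (0.13), XPO6 (0.10), an exporter of actin, and XPO7 (-0.09) did not pass. CSE1L, the exportin that returns importin alpha to the cytoplasm, has no XPO symbol and was not among the 6. It rose from 535 and 572 to 643 and 700.4 CPM (0.28, edgeR adjusted p = 0.0284), with no overlap between the pairs. Its call was lost without untreated 1 (0.415) or untreated 2 (0.184) and on the log2(TPM + 1) scale (0.109).

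In the Ran cycle, 3 of 4 genes rose and 0 fell, against 17.1% and 16.9% of all tested genes. At an unadjusted p under 0.05 also 0 fell, and DESeq2 called 3 higher and 0 lower. RAN itself had 703 and 747 CPM in untreated cells and 732 and 719 CPM in treated cells, so that the groups overlapped (0.00 ± 0.09, adjusted p = 0.997). Its fitted sign turned with other scalings. Its regulators were higher. RANBP1, which assists GTP hydrolysis on RAN as it leaves export complexes, went from 166 and 178 to 222 and 232 CPM (0.40 ± 0.09, edgeR adjusted p = 0.00405). RCC1, the chromatin-bound exchange factor, went from 97.9 and 93.8 to 116 and 117 CPM (0.28 ± 0.09, edgeR adjusted p = 0.0269). RANGAP1 (chromosome 22, 41245611 to 41286251) went from 115 and 96.4 to 157 and 126 CPM (0.41 ± 0.12, edgeR adjusted p = 0.016). The RANGAP1 pairs did not overlap, but each was spread wide: treated 2 exceeded untreated 1 by only 0.12 on the log2 scale, while treated 1 exceeded untreated 2 by 0.70. The RANGAP1 call was lost without untreated 2 (adjusted p = 0.246), that of RANBP1 without untreated 1 (0.177) or 2 (0.054), and that of RCC1 without untreated 1 (0.226) or 2 (0.321). RANBP1 shares 393 exonic bases with TRMT2A on the opposite strand, and the handling of strand in the counting is not given, so its reads are uncertain. The TPM ratio of RANBP1 to RAN was 0.251 and 0.246 in untreated cells and 0.298 and 0.323 in treated cells.

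The spread within a pair followed the base composition of the transcript. Across the 54 genes, the log2 ratio of treated 2 to treated 1 correlated with transcript GC content at Pearson's r of -0.71 (Spearman's rho -0.65), and that of untreated 2 to untreated 1 at -0.60 (-0.60). The trend was not particular to these genes. Over 12559 tested genes the treated pair gave r = -0.48 (rho -0.615), and over 12524 the untreated pair gave r = -0.22 (rho -0.41). The genes share these libraries and are not independent replicates, so no p is given. GC-rich NUP210 (58.3% GC), IPO13 (58.2%), RANGAP1 (56.8%) and IPO4 (59.4%) were lower in treated 2 than in treated 1, by -0.53, -0.43, -0.32 and -0.32 on the log2 scale. Other GC-rich transcripts were nearly level, as AAAS (57.1%) at 0.02 and POM121 (57.7%) at -0.01. TPR, at 40.1% GC, was higher by 0.41 and IPO7, at 37.6%, by 0.25. The treated to untreated fold change followed GC content less closely (r = -0.17). With the GC and length trend of each library removed, 48.2% of 12575 genes were called in all, against 33.9% before. All 19 calls were kept and 9 were added. IPO5, IPO7 and IPO8 were added as lower, and KPNB1, NUP62, NUP98, NUP214, POM121 and XPO6 as higher.

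**Figure D5:**
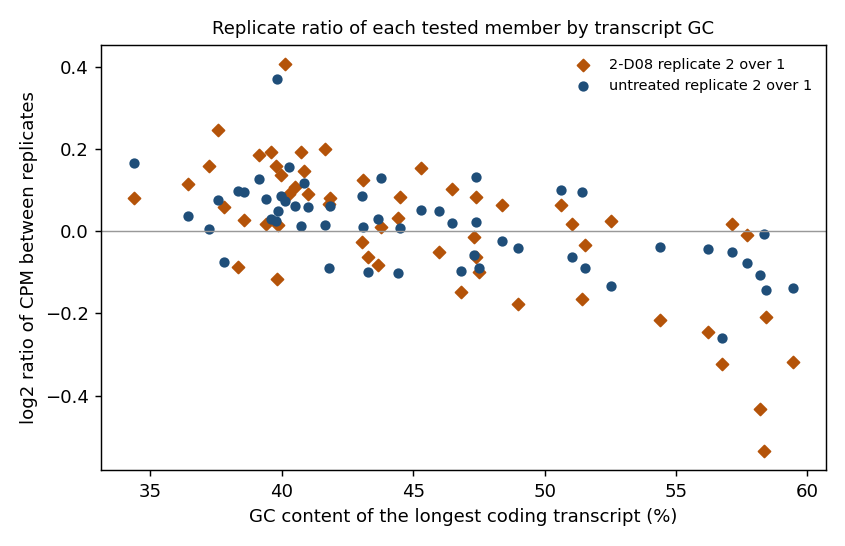
Log2 ratio of CPM between the replicates of a group for each of the 54 tested genes, against the GC content of its longest coding transcript in percent. Both sets of points slope downward, with r = -0.71 in the treated pair and r = -0.60 in the untreated pair.

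Other genes of the pathway, from a list of 17 outside the symbol pattern, had 6 higher and 0 lower, with a median of 0.09. The share called was 35.3%, against 33.9% of all tested genes (17.1% higher, 16.9% lower). At an unadjusted p under 0.05, 1 was lower, and DESeq2 called 6 higher and 0 lower. NXF1, the main receptor of mRNA export, went from 34.0 and 33.7 to 52.7 and 49.1 CPM (0.59 ± 0.11, edgeR adjusted p = 0.000981). Its partner NXT1 went from 15.3 and 13.4 to 24.3 and 21.0 CPM (0.64 ± 0.15, edgeR adjusted p = 0.00432), and its call was lost without untreated 2 (0.0581). RAE1, an mRNA export factor at the pore, went from 55.3 and 53.4 to 79.3 and 73.6 CPM (0.49 ± 0.10, edgeR adjusted p = 0.00179). In all 3 genes the treated pair lay above the untreated one. On the log2(TPM + 1) scale the calls of RAE1 (0.0743) and NXT1 (0.0611) were lost.

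KPNA2 is known as a gene that follows the cell cycle, and cycle markers moved in the same comparison. Of 13 replication markers, 11 were higher and 0 lower, with a median log2 fold change of 0.89. Their summed level was 1544 to 1585 CPM in untreated and 2751 to 2883 CPM in treated libraries. Of 12 mitosis markers, 7 were higher and 0 lower, with a median of 0.38 and sums of 2609 to 2772 against 3332 to 3814 CPM. The shares higher were 84.6% of replication and 58.3% of mitosis markers, against 17.1% of all tested genes, of which 16.9% were lower. At an unadjusted p under 0.05, 0 markers of either list were lower, and DESeq2 called 0 lower. CDK1, the mitotic kinase gene, stood at 97.8 and 97.5 CPM untreated and 206 and 214 CPM treated. It had the largest log2 fold change of the 12 mitosis markers (1.11). CCNB1 (0.17), CCNB2 (0.25), PLK1 (0.11), AURKB (0.26) and CCNA2 (0.18) did not pass the test. The part of cycling cells in the changes of KPNA2, NUP58 and the other genes was not tested. In bulk RNA, fewer cells of a kind and less RNA per cell cannot be told apart.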

How the data were processed

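RNA of 4 libraries was analysed. The submitters' processing notes name the build GRCh38, the aligner STAR 2.7.8a, the trimmer cutadapt 3.4 and DESeq2. Which tool, strand setting and annotation produced the counts is not given in the sources used. The authors deposited whole-number counts per gene, TPM values (716934 to 761770 per library over the listed genes) and a table of log2-like transformed values.

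Counts were analysed with edgeR 4.0.16 in R 4.3.3 (filterByExpr, minimum count 10, which left 12906 genes; TMM; robust quasi-likelihood test, two-sided, Benjamini-Hochberg over all tested genes). SEs were derived from the F statistic. Alternatives were RLE or no scaling factors, a stricter filter (mean of 5 CPM or more) or none, DESeq2 1.42.0, limma 3.58.1 (voom, log2(TPM + 1), log2(TPM + 0.1) and transformed values), halved or thinned counts, a replicate block and the omission of 1 library at a time. Removal of a GC and length trend was chosen after seeing the data. Scripts were tested on simulated data. Positions, transcripts, exon overlaps and shared 50-base windows came from GENCODE release 29, which can differ from the release used for counting; NUP42 bears an older name there. Genes and lists were chosen with earlier results of these data known. Values by library are given for called genes, Ran cycle genes and the most abundant gene of each class, and for up to 3 genes of smallest p per context list; other genes given by library were chosen after their values were seen.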

Additional observations from a re-analysis of the deposited data

How the results depend on the processing

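None of the 19 called transport genes turned sign in the 18 alternatives; 2 (KPNA2 and XPOT) kept their call in all 18, and 16 did so when the TPM scales and the fits without a library were set aside. On log2(TPM + 0.1), log2(TPM + 1) and log2(TPM + 1) without a filter, 1608, 1598 and 523 genes changed in all (714, 702 and 239 higher), with 4, 4 and 0 nucleoporins, 1, 1 and 1 importins and 1, 0 and 0 Ran cycle genes; the cause was not tested. The importin count was 10 with the replicate number as a block (6 higher, 4 lower), against 4 higher and 1 lower in the main fit. With the GC and length trend removed it was 9 (5 higher, 4 lower), and the exportin count was 2. The excess of rises over falls among importins thus depended on the fit. No label ties same-numbered libraries to each other. Their deviations from the group means correlated at 0.157 over 12906 genes and at 0.398 over the 10502 with a mean of at least 5 CPM, and with the replicate block 14 nucleoporins and 6239 genes in all changed. With 1 library omitted at a time, where a lone library is assumed to vary like the other group, 1866 to 6077 genes, 2 to 15 nucleoporins, 1 to 8 importins, 1 to 2 exportins and 0 to 3 Ran cycle genes changed.

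Among genes that did not pass the test, the sign of RAN turned with DESeq2 (-0.0041), RLE factors (-0.0003), the transformed values (-0.0035), a mean of at least 5 CPM (-0.0065), no filter (-0.0083) and the trend removed (-0.0823). KPNA3 turned with the trend removed (-0.0148). On the TPM scales (log2(TPM + 0.1), then both fits on log2(TPM + 1)) the sign turned for XPO5 (-0.1216, -0.1187), KPNA3 (-0.048, -0.0471), KPNB1 (-0.0383, -0.0382), IPO13 (-0.0938, -0.0822), IPO9 (-0.1974, -0.1844) and NUP160 (-0.0671, -0.0645). Over the fits without a library the values ran from -0.0418 to 0.0409 for RAN, -0.0112 to 0.2037 for XPO6, -0.005 to 0.1897 for XPO1, -0.0003 to 0.1751 for XPO5, -0.0391 to 0.1143 for KPNA3, -0.0982 to 0.3308 for IPO13, -0.0425 to 0.0623 for IPO9, -0.0948 to 0.0333 for NUP88, -0.1566 to 0.2523 for TPR, -0.0302 to 0.0715 for NUP160, -0.0859 to 0.0073 for SEH1L and -0.2475 to 0.0207 for SEC13.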

Other observations

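Most genes of the nuclear envelope that the pore sits in did not pass the test. Of 15 lamina and envelope genes, 11 were not called, 1 was higher and 3 were lower, against 17.1% and 16.9% of all tested genes, with a median log2 fold change of -0.08. SUN2, an inner membrane protein that links the nucleus to the cytoskeleton, went from 56.6 and 48.1 to 38.3 and 28.2 CPM (-0.67 ± 0.14, edgeR adjusted p = 0.00247), and its call was lost on the log2(TPM + 1) scale (0.212). LMNA, which encodes lamins A and C, went from 343 and 329 to 268 and 200.1 CPM (-0.53 ± 0.12, edgeR adjusted p = 0.00373). SYNE1, a giant linker of the outer membrane, went from 591 and 582 to 422 and 494 CPM (-0.36 ± 0.10, edgeR adjusted p = 0.0107), and its call was lost without untreated 1 (0.164) or untreated 2 (0.107). TMPO, which encodes the lamina-associated polypeptide 2 proteins, rose from 326 and 356 to 392 and 439 CPM (0.29, edgeR adjusted p = 0.0318), and its call was lost without untreated 1 (0.44) or untreated 2 (0.152) and on the log2(TPM + 1) scale (0.29). LMNB1, encoding lamin B1, had 103 and 108 against 118 and 123 CPM and did not pass (adjusted p = 0.116).

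Of 16 mRNA export adaptor genes, 2 were higher and 2 lower (12.5% each), against 17.1% and 16.9% of all tested genes, with a median of 0.05. Subunits of the THO complex, which couples transcription to export, differed in direction. THOC6 went from 16.8 and 15.7 to 7.38 and 6.35 CPM (-1.26 ± 0.17, edgeR adjusted p = 0.000102). THOC5 went from 63.5 and 57.9 to 45.6 and 40.3 CPM (-0.51 ± 0.11, edgeR adjusted p = 0.00292), and its call was lost without untreated 1 (0.0868). THOC1, chosen after its values were seen, went from 51.0 and 56.4 to 62.9 and 74.7 CPM (0.37 ± 0.11, edgeR adjusted p = 0.0207), and its call was lost without treated 2 (0.0877), untreated 1 (0.279) or untreated 2 (0.0683) and on the log2(TPM + 1) scale (0.178). ENY2, of the export complex at the pore, went from 63.6 and 71.1 to 80.9 and 89.5 CPM (0.34 ± 0.10, edgeR adjusted p = 0.0179), and its call was lost without untreated 1 (0.331) or untreated 2 (0.0695).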
